A study of Mus musculus with 9 samples.

Results

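The 9 genes described here encode complement proteins that act after, or control, the recognition protein C1q. They are the C1 proteases C1ra and C1s1, the C1 inhibitor Serping1, the convertase proteases C2 and Cfb, the thioester proteins C3 and C4b, and the anaphylatoxin receptors C3ar1 and C5ar1. They were taken by gene symbol as a set chosen with earlier results of these data known, and each matched 1 of the 53924 named rows. All 9 had enough counts to be tested, among 16634 genes tested. RNA was sequenced in bulk from mouse cerebellum in 9 libraries, 3 in each of 3 groups. Control mice were given saline. Mice of the 3AP group were given 3-acetylpyridine (3-AP), a nicotinamide analogue that kills neurons of the inferior olive and causes ataxia. Mice of the PLX3AP group were given 3-AP after PLX3397, an inhibitor of the CSF1 receptor used to deplete microglia. The labels give no strain, age, sex, dose or time, and no libraries with PLX3397 alone were analysed here. Whether a library stands for 1 animal is not stated, so p-values measure the spread between these libraries, which may be technical.

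Complement is a chain of proteases and their substrates in blood and tissue fluid. In the classical pathway, C1r activates C1s on the C1q complex, C1s cleaves C4 and C2, and the resulting convertase cleaves C3. Factor B provides the protease of the alternative pathway convertase, which amplifies C3 cleavage. The fragments C3a and C5a act on myeloid receptors, and C3 fragments left on a surface mark it for uptake by microglia and macrophages. In brain, C1q comes mainly from microglia, and astrocytes, endothelial cells and neurons can also make complement proteins.

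The libraries held between 18452256 and 22358447 estimated counts each, and no 2 libraries of a group were near-copies (chi-square of their counts over its degrees of freedom, 4.68 to 27.2). The summed level of 8 Purkinje and granule cell markers was 6135 to 7442 CPM (counts per 1000000, scaled by TMM) in every library. Of these 8 markers edgeR called 0 in any comparison, as did DESeq2 and limma-voom, with 2, 1 and 1 of them at an unadjusted p under 0.05. The summed level of 8 choroid plexus markers ranged from 188.6 to 5261 CPM and varied within each group.

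In GRCm38 (mm10) coordinates and the GENCODE M21 annotation, C1ra (chr6:124512405-124523443) and C1s1 (chr6:124530345-124542359) are neighbours on opposite strands. C3ar1 lies on the same chromosome (chr6:122847138-122856161). Cfb (chr17:34856374-34862518), C2 (chr17:34862604-34898265) and C4b (chr17:34728380-34743882) lie together in the class III region of the major histocompatibility complex. C3 is elsewhere on that chromosome (chr17:57203970-57228136), Serping1 is at chr2:84765387-84775444, and C5ar1 is at chr7:16246743-16259540. All 9 are protein-coding.

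Some of these genes share sequence with others, which matters for estimated counts. Of the 100-base stretches of the longest C1ra transcript, 34.5% also occur in the transcripts of its copy C1rb. The share was 16.5% for C4b in C4a and 7.9% for C1s1 in C1s2. Summed over the 3 libraries of control, 3AP and PLX3AP, C1rb had 0, 2.82 and 0 counts, C1s2 had 2, 7.09 and 9, and C4a had 18.59, 36.57 and 21.43. Summing each pair of copies before the test left the counts of called members at 8, 9 and 0 in the 3 comparisons below. A separate gene model, Gm20547, covers 79.5% of the exon bases of Cfb and 42.8% of those of C2 on the same strand. The antisense gene Gm16567 overlaps 18.4% of the exon bases of C1s1, and whether the counting used strand is not given in the sources used here.

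RefSeq promoter windows (GRCm38.p6) were matched for 5 of the 9 genes, in 6 windows of 250 bases before a start: C1ra, C1s1 (2 starts), C3, C3ar1 and C5ar1. Serping1, C2, Cfb and C4b had no entry. 4 motifs linked to inflammatory signalling were searched on both strands, and the stretches with a match are shown with the match in capitals. The first holds the whole C3 window (chr17:57228137-57228386, minus strand), the second 60 bases of C1s1 (chr6:124542550-124542609, minus strand), and the third 30 bases of C5ar1 (chr7:16259384-16259413, minus strand).
C3: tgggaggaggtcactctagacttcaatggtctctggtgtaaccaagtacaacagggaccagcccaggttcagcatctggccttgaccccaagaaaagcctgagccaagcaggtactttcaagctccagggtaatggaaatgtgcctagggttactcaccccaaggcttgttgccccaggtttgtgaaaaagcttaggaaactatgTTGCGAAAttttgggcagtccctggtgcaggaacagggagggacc
C1s1: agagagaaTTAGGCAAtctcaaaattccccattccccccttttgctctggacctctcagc
C5ar1: gagacttccTTCCTTTTCcaagttgacatc

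The capitals in C3, from -45 to -38 bases before its start, and those in C1s1, from -242 to -235, match the C/EBP pattern TTGCNNAA on one or the other strand. In C5ar1 they match the core of the interferon-stimulated response element, GAAANNGAA, from -66 to -58, on the reverse strand. The C/EBP pattern was in 2 of the 6 windows and in 9.57% of 32841 windows of the same length, and the interferon core in 1 of 6 and in 7.13%. No window held the STAT pattern TTCNNNGAA (7.02% of all windows) or the NF-kB consensus (7.25%). The printed matches do not overlap one another. These matches describe letters in short windows and were not tested for binding.

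After 3-AP, RNA of complement genes from the C1 proteases to the C5a receptor was higher. Of the 9 genes edgeR called 8 higher in 3AP than in control (Benjamini-Hochberg adjusted p under 0.05), against 3.75% of all genes tested. The exception was C3ar1. In all 9 the 3 libraries of the 3AP group lay above the 3 controls, which 13.6% of all tested genes also showed. Cfb and C5ar1 had enough counts to be tested only through the 3AP libraries, where they were high, so they add no support to either count. The median log2 fold change of the 9 was 2.79, the value of C5ar1 itself, beside 0.00119 over all genes. In the genes other than Cfb and C5ar1, log2 fold changes ran from 0.98 for C2 to 4.48 for C3. Rises were 4-fold or more in 6 of the 9 genes, against 1.12% of all genes tested. Cfb and C5ar1 are among those 6 and add no support to that count either. In a bulk tissue, a change in the number of cells that make an RNA and a change in the RNA per cell cannot be told apart.

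**Figure D1:**
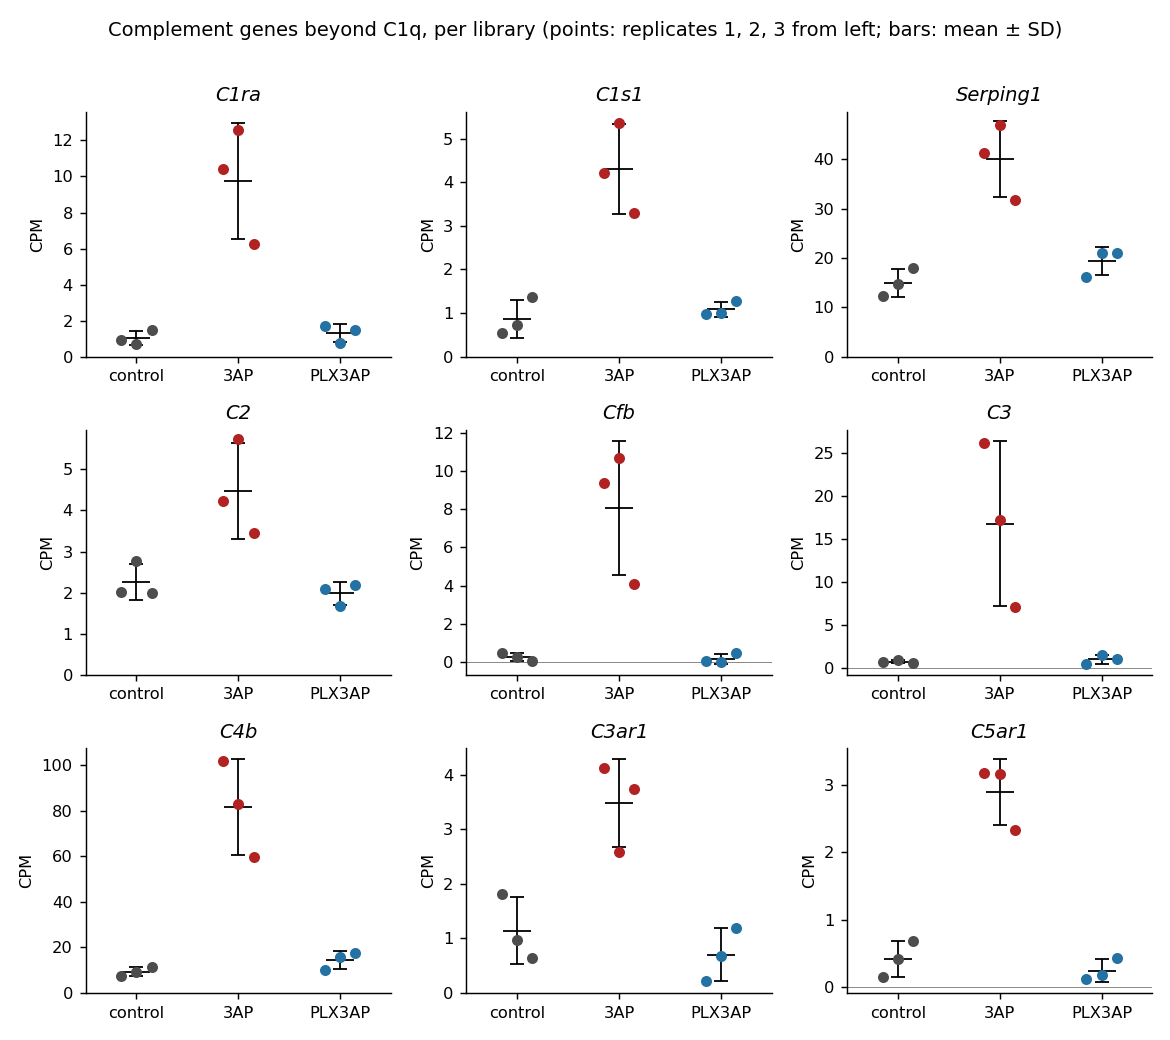
CPM of each of the 9 genes (vertical axes, CPM, starting at 0 or below, separate scales) in the 3 libraries of each group. Points are replicates 1, 2 and 3 from left to right and bars are mean ± SD. The 3AP points lie above all control and PLX3AP points in each panel.

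C1ra and C1s1 encode the serine proteases that sit on C1q and start the classical pathway. C1ra was at 0.933, 0.719 and 1.46 CPM in control replicates 1 to 3, at 10.4, 12.6 and 6.26 in 3AP, and at 1.70, 0.768 and 1.48 in PLX3AP. The 3AP libraries stood apart, and control and PLX3AP overlapped. C1ra rose 9.31-fold in 3AP against control (log2 fold change 3.22, SE 0.36, n = 3 per group, edgeR adjusted p 0.00024), and it was 7.44-fold lower in PLX3AP than in 3AP (log2 -2.90, SE 0.35, edgeR adjusted p 0.0004). C1s1 was at 0.540, 0.719 and 1.36 CPM in control, 4.22, 5.36 and 3.30 in 3AP, and 0.988, 0.994 and 1.29 in PLX3AP. It rose 4.87-fold (log2 2.28, SE 0.34, edgeR adjusted p 0.0015) and was 3.92-fold lower with PLX3397 (log2 -1.97, SE 0.33, edgeR adjusted p 0.0036). Again control and PLX3AP libraries overlapped.

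Serping1 encodes the C1 inhibitor, which removes C1r and C1s from C1q. It was the most abundant of the 9 per transcript length in all 3 groups (TPM, transcripts per 1000000, as the authors scaled them), with 18.1 ± 1.90 TPM in control, 50.5 ± 10.6 in 3AP and 24.8 ± 4.04 in PLX3AP (mean ± SD, n = 3). In CPM its libraries read 12.3, 14.7 and 17.9 in control, 41.3, 47.0 and 31.8 in 3AP, and 16.2, 21.01 and 21.05 in PLX3AP. The 3AP values lay apart from both other groups, and 2 of the PLX3AP libraries lay above the highest control. Serping1 rose 2.67-fold (log2 1.42, SE 0.17, edgeR adjusted p 0.00054) and was 2.06-fold lower in PLX3AP than in 3AP (log2 -1.04, SE 0.17, edgeR adjusted p 0.0039).

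C2 and Cfb are neighbouring, related genes for the proteases of the classical and alternative C3 convertases. C2 was at 2.01, 2.77 and 2.00 CPM in control, 4.22, 5.75 and 3.44 in 3AP, and 2.09, 1.67 and 2.20 in PLX3AP. C2 had the smallest rise of the 9 (1.98-fold, log2 0.98, SE 0.25, edgeR adjusted p 0.042) and was 2.25-fold lower in PLX3AP than in 3AP (log2 -1.17, SE 0.25, edgeR adjusted p 0.019). Both calls were weak. The first was lost without control replicates 1, 2 or 3, 3AP replicates 1 or 2, or PLX3AP replicate 3 (edgeR adjusted p 0.055 to 0.19), with the Ttr level as a covariate (0.08), and in a fit of only the 2 groups (0.057). The second was lost without 3AP replicates 1 or 2 or PLX3AP replicates 2 or 3 (0.052 to 0.10). In the authors' TPM, C2 was at 3.73, 4.17 and 1.86 in control and at 4.26, 6.03 and 2.34 in 3AP, and these groups overlapped. On log2(TPM + 0.1), limma-trend gave C2 a log2 change of 0.34 (SE 0.40, adjusted p 0.80). The TPM given to 1 CPM of C2 ran from 0.68 to 1.85 between libraries, beside 0.54 to 0.622 for C1ra.

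Cfb went from near 0 to a level above that of C2. It had 10, 4.98 and 1.13 estimated counts in control, 190.66, 219 and 84.31 in 3AP, and 0.78, 0 and 10 in PLX3AP. Its rise was 29.6-fold (95% interval 8.81 to 99.6, log2 4.89, SE 0.77, edgeR adjusted p 0.0064), and in PLX3AP it was 43.4-fold lower than in 3AP (log2 -5.44, SE 0.82, edgeR adjusted p 0.0051). Without PLX3AP replicate 3 the difference from 3AP was 259-fold, and without PLX3AP replicate 2 it was 28.5-fold. Without control replicate 1 the rise was 51.4-fold. On log2(TPM + 0.1) limma-trend gave a rise of 15.6-fold that missed the threshold (adjusted p 0.05) and a difference between PLX3AP and 3AP of 20.1-fold. For that difference limma-voom gave 76.9-fold. The few reads outside the 3AP group were divided between Cfb and the overlapping model Gm20547. Gm20547 had 0, 3.79 and 5.19 counts in control, 13.51, 0 and 11.68 in 3AP, and 9, 18.11 and 0 in PLX3AP. In each group, Gm20547 was at 0 in the library where Cfb was highest. The sum of both was 10, 8.77 and 6.32 counts in control, 204.17, 219 and 95.99 in 3AP, and 9.78, 18.11 and 10 in PLX3AP. With the Gm20547 counts added to Cfb, an alternative chosen after seeing the data, the rise was 20.1-fold (log2 4.33, SE 0.38, edgeR adjusted p 3.4e-05) and the difference between PLX3AP and 3AP 13.6-fold (log2 -3.76, SE 0.36, edgeR adjusted p 5.8e-05).

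The genes C3 and C4b encode the proteins C3 and C4, whose thioester bond attaches them to surfaces once they are cleaved. A fragment of C4 is part of the classical convertase, and C3 is the central substrate of all pathways. C3 was at 0.737, 0.924 and 0.585 CPM in control, 26.2, 17.2 and 7.08 in 3AP, and 0.494, 1.54 and 1.05 in PLX3AP. The 3 libraries of the 3AP group differed 3.70-fold among themselves, and even the lowest of them was above every other library. C3 rose 22.4-fold (95% interval 9.37 to 53.3, log2 4.48, SE 0.55, edgeR adjusted p 0.0017) and was 16-fold lower in PLX3AP than in 3AP (log2 -4, SE 0.53, edgeR adjusted p 0.0026). With limma-voom the adjusted p of C3 was 0.067 and 0.087 in these comparisons. On log2(TPM + 0.1) its rise was 12.8-fold (limma-trend adjusted p 0.0026).

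C4b had the highest counts of the 9 in 3AP. It was at 7.32, 9.40 and 11.5 CPM in control, 102, 82.8 and 59.8 in 3AP, and 10.2, 15.9 and 17.5 in PLX3AP. It rose 8.66-fold (log2 3.11, SE 0.27, edgeR adjusted p 0.00027) and was 5.6-fold lower in PLX3AP than in 3AP (log2 -2.48, SE 0.26, edgeR adjusted p 0.00073). The PLX3AP libraries overlapped with control in 1 of 3 values, and the other 2 lay above the highest control. C4a, its copy, was at 0.312 ± 0.199 CPM in control, 0.584 ± 0.256 in 3AP and 0.343 ± 0.0346 in PLX3AP, and was not called (edgeR adjusted p 0.47 and 0.67).

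C3ar1 and C5ar1 encode the receptors of the peptides C3a and C5a on microglia, macrophages and neutrophils. C3ar1 was at 1.82, 0.976 and 0.634 CPM in control, 4.12, 2.58 and 3.73 in 3AP, and 0.220, 0.678 and 1.19 in PLX3AP. In 3AP against control it had a log2 difference of 1.60 (SE 0.47, edgeR adjusted p 0.08) and was not called, although DESeq2 (adjusted p 0.028) and limma-voom (0.041) called it, as did edgeR without a filter (0.028). Against 3AP it was 4.89-fold lower in PLX3AP (log2 -2.29, SE 0.49, edgeR adjusted p 0.020), a call lost without 3AP replicates 1 or 3 or PLX3AP replicate 2 (0.053 to 0.10). Without PLX3AP replicate 3 that difference was 7.47-fold. C5ar1 was at 0.147, 0.411 and 0.682 CPM in control, 3.19, 3.17 and 2.33 in 3AP, and 0.110, 0.181 and 0.430 in PLX3AP. C5ar1 rose 6.90-fold (log2 2.79, SE 0.48, edgeR adjusted p 0.0042) and was 11.6-fold lower with PLX3397 (log2 -3.54, SE 0.52, edgeR adjusted p 0.0014), or 18.9-fold without PLX3AP replicate 3. These receptors had few reads: C5ar1 had 25, 178 and 15 counts over the control, 3AP and PLX3AP libraries, and C3ar1 had 69, 214 and 44.

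**Figure D2:**
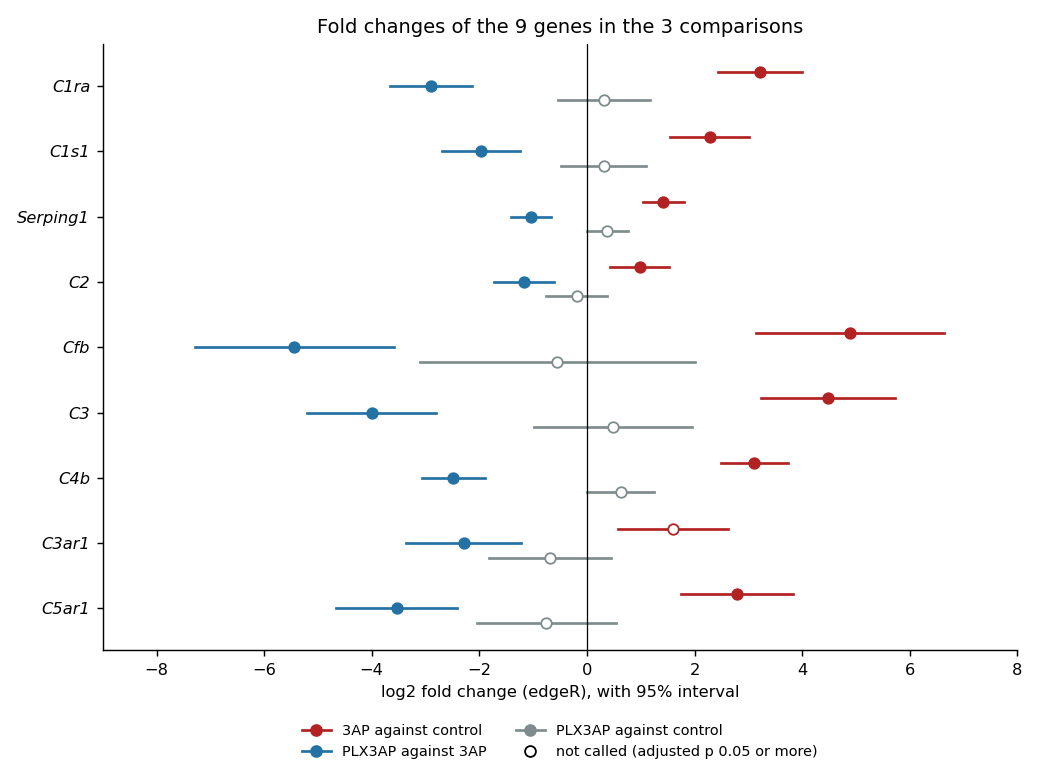
Log2 fold change of each gene (horizontal axis, edgeR fit over all 9 libraries) with its 95% interval, for 3AP against control (red), PLX3AP against 3AP (blue) and PLX3AP against control (grey); filled points passed an adjusted p of 0.05 and open points did not. Cfb has the widest intervals, and 8 of the 9 grey intervals cross 0, that of C4b starting at 1.00-fold.

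PLX3AP was then compared with 3AP, to see how complement RNA differed where PLX3397 came before 3-AP. All 9 genes were called lower in PLX3AP (edgeR adjusted), against 3.16% of all genes tested, with a median log2 fold change of -2.48 beside -0.00831 over all genes. In each of the 9 the PLX3AP libraries lay below the 3AP libraries, as 9.22% of tested genes did. The 2 comparisons share the 3AP libraries, so a high value in those libraries enters both. Only those libraries brought Cfb and C5ar1 over the filter on low counts, so these 2 genes add no support to the counts or the median here. In the other genes, log2 fold changes ran from -1.04 for Serping1 to -4 for C3. C4b, Serping1 and C3 were at 14.5 ± 3.84, 19.4 ± 2.82 and 1.03 ± 0.521 CPM in PLX3AP (mean ± SD, n = 3), and at 81.5 ± 21.1, 40.05 ± 7.72 and 16.8 ± 9.57 in 3AP.

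Between PLX3AP and control edgeR called 0 of the 9 genes, against 0.12% of all genes tested. Cfb and C5ar1 had enough counts to be tested only through the 3AP libraries, and in a fit of PLX3AP and control alone 0 of the 7 genes that could be tested were called. DESeq2 and limma-voom also called 0, and 1 gene, C4b, had an unadjusted p under 0.05. The groups overlapped in all 9 genes, while 14.3% of tested genes showed no overlap. Fitted levels in PLX3AP relative to control were 1.55-fold for C4b (95% interval 1.00 to 2.38, edgeR adjusted p 0.53) and 1.30-fold for Serping1 (0.995 to 1.69, edgeR adjusted p 0.54). C1ra was at 1.25-fold (0.692 to 2.26), C1s1 at 1.24-fold (0.719 to 2.15) and C3 at 1.40-fold (0.508 to 3.85). On the other side lay C2 at 0.877-fold (0.592 to 1.30), C3ar1 at 0.621-fold (0.283 to 1.36) and C5ar1 at 0.594-fold (0.242 to 1.46). Cfb was at 0.683-fold with an interval of 0.117 to 4, and its direction flipped with the Gm20547 counts added (log2 0.57, SE 0.45). The widths leave room for differences of 2-fold or more in C1ra, C1s1, C3, C4b, Cfb, C3ar1 and C5ar1.

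Per transcript length the order of levels changed with 3-AP. In control, Serping1 (18.1 TPM) was followed by C4b (3.45 ± 1.10) and C2 (3.25 ± 1.23), which did not differ beyond their spread. The other 6 lay close together, between 0.403 TPM for C5ar1 and 0.587 for C1ra, also within their spread. In 3AP, Serping1 (50.5 ± 10.6) was followed by C4b (30.3 ± 8.504), C3 (8.13 ± 5.19), Cfb (6.62 ± 2.62), C1ra (5.81 ± 1.96), C2 (4.21 ± 1.85), C1s1 (3.04 ± 0.934), C5ar1 (2.82 ± 0.0693) and C3ar1 (1.39 ± 0.299). From C3 down to C5ar1, neighbours differed by less than the larger of their SDs. TPM of C3 carried added uncertainty, since the TPM given to 1 CPM of C3 differed up to 4.06-fold between libraries.

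**Figure D3:**
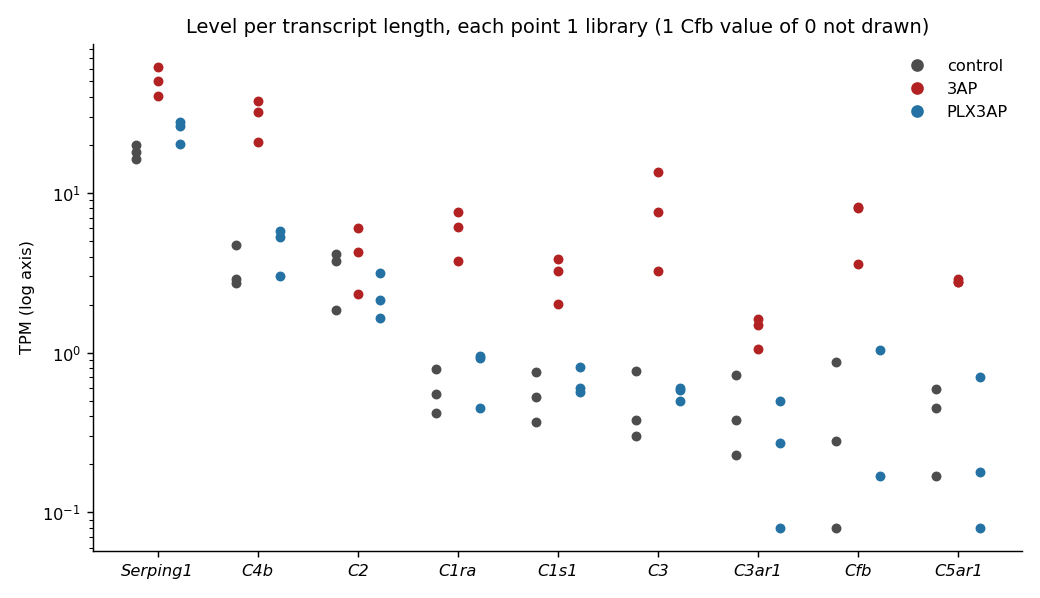
TPM on a log axis for each gene, ordered by its mean in control from left to right, with 1 point per library (control grey, 3AP red, PLX3AP blue; 1 value of 0 for Cfb in PLX3AP is not drawn). Serping1 is highest in each group, and C3 and Cfb, at 0.483 and 0.41 TPM in control, are next after C4b in 3AP.

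The 3AP libraries differed among themselves in a shared way. Replicate 3 was the lowest of the 3 in 8 of the 9 genes, all but C3ar1, whereas 39.3% of all tested genes were lowest there. Relative to the mean of the group, replicate 3 was at 42.1% for C3, 50.7% for Cfb, 64.2% for C1ra, 73.3% for C4b and 79.3% for Serping1. The summed level of 8 reactive astrocyte markers was 1651, 1204 and 740.7 CPM in 3AP replicates 1 to 3, and that of 10 blood leukocyte markers was 24.2, 17.7 and 9.65. The 12 homeostatic microglia markers summed to 291, 246.4 and 264.3 CPM, and 8 interferon response genes to 241.4, 243.6 and 221.3. Choroid plexus markers summed to 1346, 2616 and 921.1 CPM, and meningeal fibroblast markers to 412.4, 453.4 and 351.9. The sums of reactive astrocyte and leukocyte markers, like C3, C4b and C5ar1, were highest in replicate 1 and lowest in replicate 3. The choroid plexus and fibroblast sums were highest in replicate 2 and lowest in replicate 3, like 5 of the 9 genes. Sums of endothelial, general astrocyte and interferon genes were also lowest in replicate 3, at 95.2%, 89% and 94% of their group means. Border-associated macrophage markers ran the other way, with sums of 35.98, 37.01 and 39.33 CPM in replicates 1 to 3. So did the alternative pathway and fluid-phase regulators outside the 9 genes, mainly Cfp, with sums of 31.66, 38.08 and 54.75 CPM. The microglial and interferon sums varied less, 1.18-fold and 1.10-fold from lowest to highest. Their part in the spread of the complement genes was not tested.

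**Figure D4:**
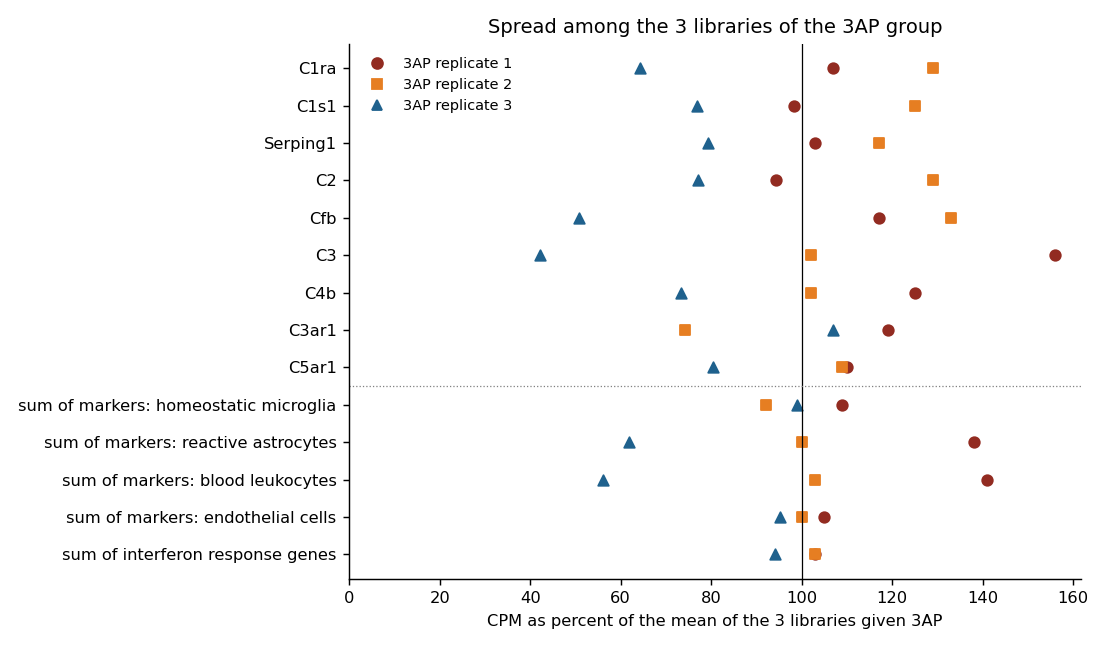
CPM in each of the 3 libraries of the 3AP group as a percent of the mean of that group (horizontal axis), for the 9 genes and, under the dotted line, for summed marker lists. Replicate 3 (triangles) lies lowest for 8 of the 9 genes, at 42.1% for C3, and is also lowest for 4 of the 5 sums drawn, all but that of microglia.

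Markers of several cell types moved with the same groups. Homeostatic microglia markers summed to 153.8 to 170.3 CPM in control, 246.4 to 291 in 3AP and 93.6 to 141.8 in PLX3AP. Of these 12 markers 4 were called higher in 3AP than in control, and 7 lower in PLX3AP than in 3AP. Markers of border-associated macrophages summed to 23.4 to 26.2, 36.0 to 39.3 and 3.62 to 6.78 CPM, with 2 of 7 tested called higher in 3AP and 7 of 7 lower in PLX3AP against 3AP. One of them, Folr2, passed the filter on low counts only with the help of the 3AP libraries. Unlike the 9 complement genes, 5 of those 7 were also called lower in PLX3AP than in control. Blood leukocyte markers summed to 1.57 to 4.29, 9.65 to 24.2 and 1.72 to 2.43 CPM (4 of 6 tested higher in 3AP, 5 lower with PLX3397). Of those tested, all but Ly6c2 had enough counts only through the 3AP libraries, where they were high. They therefore add no support to these counts. The markers that could not be tested were Cd3e, Cd3g, Cd79a and Ms4a1.

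Reactive astrocyte markers summed to 439.8 to 483.4 CPM in control, 740.7 to 1651 in 3AP and 493.4 to 584.3 in PLX3AP, with 4 of 8 called higher in 3AP and 5 lower in PLX3AP against 3AP. Among these, Lcn2 had enough counts to be tested only through the 3AP libraries, so it adds no support to these counts. Endothelial markers summed to 258 to 268.4, 389.5 to 428.1 and 267.8 to 270 CPM (6 of 8 higher, then 4 lower). For meningeal fibroblasts, which can also express C1 proteases and Serping1, the sums of 286.2 to 440.1, 351.9 to 453.4 and 265 to 382.8 CPM overlapped between groups (1 of 9 higher, then 3 lower). General astrocyte and Bergmann glia markers summed to 6094 to 6291, 5559 to 6622 and 5926 to 6525 CPM, with 2 of 10 called lower in 3AP and 1 higher in PLX3AP against 3AP. None of the markers in these lists was at 0 in all 9 libraries. Their part in the complement values was not tested.

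The receptors could be set against the microglial markers within each library. Per 1000 CPM of the 12 summed homeostatic markers, C5ar1 was at 0.888, 2.67 and 4.01 CPM in control, 10.96, 12.8 and 8.81 in 3AP, and 1.17, 1.69 and 3.03 in PLX3AP. The 3AP libraries lay apart from both other groups, with a ratio 4.31-fold that of control. An exact two-sided permutation test gave p = 0.1, the smallest that 3 against 3 libraries allow, and 0.2 after adjustment over 6 tests. C5ar1 had only 3, 8 and 14 counts in control and 2, 4 and 9 in PLX3AP. It passed the filter on low counts only through the 3AP libraries, where it was high, so this separation adds no support. C3ar1 per 1000 CPM of markers was at 10.9, 6.34 and 3.72 in control, 14.2, 10.5 and 14.1 in 3AP, and 2.35, 6.34 and 8.41 in PLX3AP. Here the 3AP and control libraries overlapped (ratio 1.84-fold, exact permutation p = 0.2), and PLX3AP lay below 3AP at 0.441 of its ratio (exact permutation p = 0.1, adjusted 0.2). With 3 libraries a group this test cannot reach 0.05.

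Among the other complement genes, edgeR called the C1q chains and 3 receptor genes. Of 46 such genes 24 could be tested, 6 were called higher in 3AP than in control, and 6 were called lower in PLX3AP than in 3AP. The same 6 names appear in both: C1qa, C1qb, C1qc, Itgam, Itgb2 and Cd93. The median log2 fold change of the 24 was 0.05 and -0.21, beside 2.79 and -2.48 for the 9. The medians of the 9 include Cfb and C5ar1, which could be tested only through the 3AP libraries, where they were high. Since the 9 and the lists were chosen with earlier results of these data known, this contrast describes them and tests nothing. 

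The 3 chains of C1q, which recognises antibody and other marked surfaces, rose 2.90-fold to 3.18-fold (log2 1.54 to 1.67) and were 4.39-fold to 4.91-fold lower in PLX3AP than in 3AP. C1qa was at 16.7 ± 1.65, 51.8 ± 8.03 and 10.6 ± 2.77 CPM in control, 3AP and PLX3AP. In PLX3AP the 3 libraries of C1qa and of C1qb also lay below the controls (edgeR adjusted p 0.30 and 0.50, not called). Cfp, properdin, which stabilises the alternative convertase, was at 26.8 ± 3.94, 41.4 ± 11.8 and 28.7 ± 2.65 CPM and was not called by edgeR (adjusted p 0.093 and 0.22). The 3AP and control libraries of Cfp did not overlap, and DESeq2 called it higher in 3AP (adjusted p 0.014), while limma-voom did not (0.11).

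Receptors for complement fragments changed as well. Itgam and Itgb2, the chains of complement receptor 3, rose 4.23-fold and 4.56-fold, and were 6.85-fold and 5.68-fold lower in PLX3AP than in 3AP. Cd93, a receptor of endothelial and myeloid cells first described as a C1q receptor, rose 4.21-fold and was 4.45-fold lower. By contrast, of 11 tested membrane and surface regulators edgeR called 0 in any comparison, and so did DESeq2 and limma-voom (unadjusted p under 0.05 in 1, 0 and 0). Their log2 changes ran from -0.55 to 0.26 after 3-AP. Clu, clusterin, was the most abundant of that list, with a log2 change of 0.21 (SE 0.13). In the lectin pathway, which reads sugars on surfaces, edgeR called 0 of 3 tested genes in any comparison, with 0, 1 and 1 at an unadjusted p under 0.05 and none called by the other tools. Of the 7 terminal pathway genes, which form the membrane pore, only C8g could be tested, and it was not called (log2 -0.64, SE 0.45, edgeR adjusted p 0.54). The summed terminal genes did not exceed 1.85 CPM in any library.

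**Figure D5:**
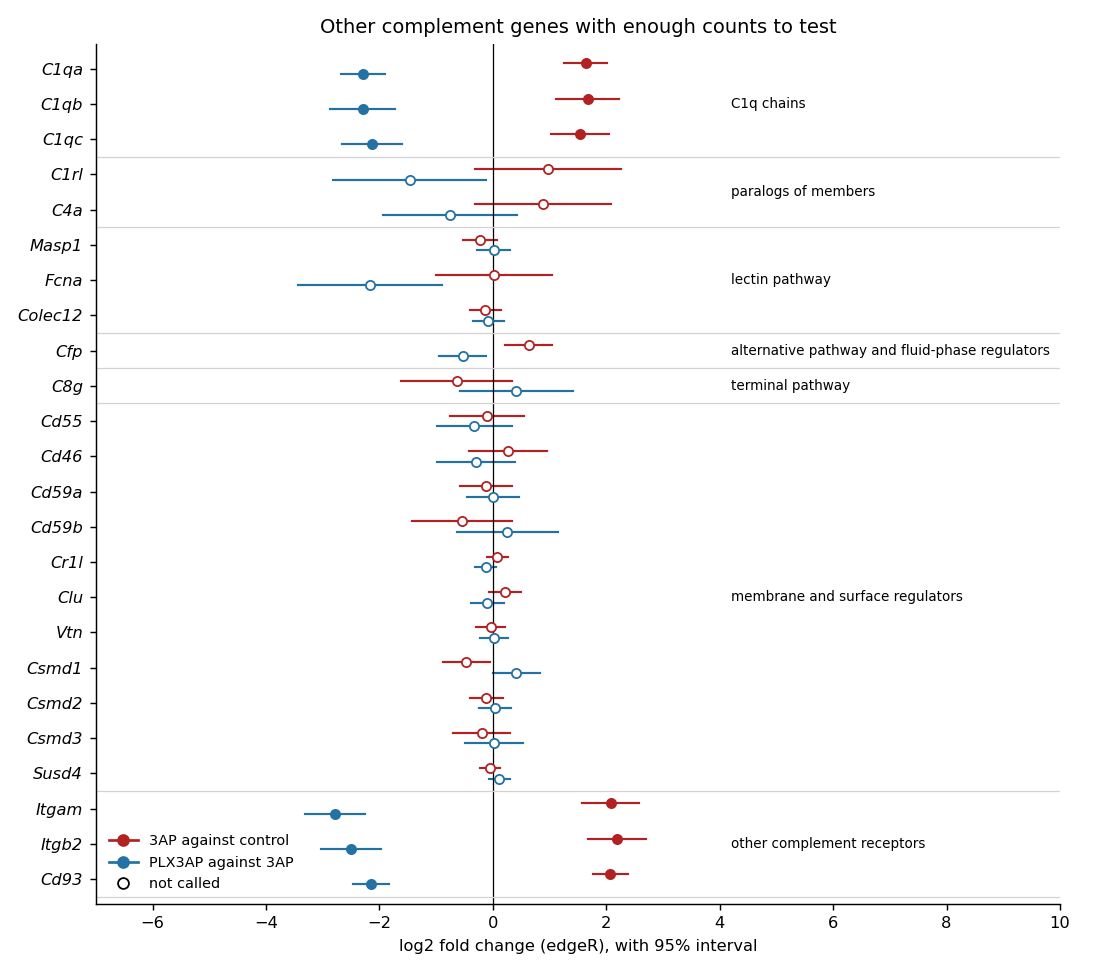
Log2 fold change with its 95% interval (horizontal axis) of the 24 other complement genes that could be tested, grouped by role, for 3AP against control (red) and PLX3AP against 3AP (blue); filled points were called. C1q chains, Itgam, Itgb2 and Cd93 are filled in both, and no membrane regulator is.

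Likeness of pattern was measured as the root mean square difference between genes over the 9 libraries, after log2 CPM of each gene was centred at 0. Within the 9, the closest pairs were Serping1 with C2 (0.348), C1s1 with Serping1 (0.438), and C1s1 with C4b (0.446). Over all tested genes the nearest to C4b were Irf7 (0.248), Hcar2 (0.271) and Oasl2 (0.274), while the median distance from C4b was 1.39. For C3 they were Selp (0.290), Serpina3n (0.361) and Fcgr4 (0.479), beside a median of 1.99. Both medians are close to the distance of the gene itself from a flat pattern (1.37 for C4b and 1.98 for C3). Genes with similar differences between groups therefore lie near one another by this measure. C1ra was nearest to Cd244a (0.343), Cxcl9 (0.384) and Ifitm3 (0.394), and C1s1 to Bst2 (0.181), Plekha4 (0.185) and Prg4 (0.196). Those nearest to Serping1 were Apod (0.157), Parp3 (0.160) and Pecam1 (0.162), and those nearest to C2 were Slc52a3 (0.176), Cxcl16 (0.186) and Otoa (0.189). C5ar1 lay nearest to Aoah (0.247), Fpr1 (0.307) and AB124611 (0.372), and C3ar1 to B3gnt3 (0.453), Capn3 (0.463) and Ccl9 (0.467). Cfb had no close neighbour, with Pilra (0.842), Mmp3 (0.899) and Ifi211 (0.936) the nearest. Outside the 3AP group Cfb had 0 to 10 counts per library, with reads divided between it and Gm20547. The part of this in its distances was not tested. None of the nearest 3 genes of any of the 9 was another of the 9.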

How the data were processed

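Bulk RNA of mouse cerebellum was measured in 9 libraries. The tools named in the submitters' processing notes are fastp, RSEM, HISAT2 and StringTie, with mm10 as the build. The sources used here give no tool versions, annotation release or strandedness. Files deposited by the authors hold expected counts (estimated reads per gene, 28.7 to 30.8% of values above 0 not whole) and TPM scaled by the authors to transcript length and library total. Rows without a gene name (0.526 to 0.66% of counts) were left out.

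Rounded expected counts were analysed with edgeR 4.0.16 in R 4.3.3 (filterByExpr, TMM factors 0.986 to 1.02, robust quasi-likelihood fit, 1 term per group, all 9 libraries). P-values are two-sided and Benjamini-Hochberg adjusted over 16634 genes, with calls under 0.05. The standard error is the log2 fold change over the square root of F. The biological coefficient of variation was 0.126. Alternatives used DESeq2 1.42.0 and limma 3.58.1, other scalings, no filter, log2(TPM + 0.1 or 1), 1 library left out, a replicate block, and the log2 CPM of Ttr as a covariate. Members and lists were chosen with earlier results of these data known. The labels do not tie equal replicate numbers together, and same-numbered libraries did not deviate together (r from -0.203 to 0.0931). Markers, likeness and motifs describe the data without a test of cause. The rule for named genes was all 9 members, called genes and copies in the other complement lists, and the 3 nearest genes by likeness. Cfp, Clu, C8g and Fcna were named as well, though edgeR did not call them. Among the other complement genes, 1 item is not reported here and was left out of the lists.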

Additional observations from a re-analysis of the deposited data

How the results depend on the processing

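The 9 genes were refitted under 23 other settings. In both comparisons with 3AP none of the 207 refitted log2 changes turned direction. Calls were lost 13 times in each: for C2, C3 and Cfb in 3AP against control, and for C2, C3 and C3ar1 in PLX3AP against 3AP. C3ar1 was called in 5 settings in 3AP against control. Folds on log2(TPM + 1) were smaller, such as 5.29 for Cfb, 5.51 for C3 and 4.18 for C1ra in 3AP against control; a pseudocount understates changes of low genes. Called members numbered 6 (log2(TPM + 0.1)) to 9 in 3AP against control, 7 to 9 in PLX3AP against 3AP, and 0 in PLX3AP against control in every setting. In a fit of only PLX3AP and control, Cfb and C5ar1 were below the filter and have no value. With 1 library left out the numbers were 7 to 9, 7 to 9 and 0.

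Over all genes, calls in the 3 comparisons were 820, 621 and 20. With log2(TPM + 0.1) they were 475, 392 and 11, and with log2(TPM + 1) 502 in the first and 6 in the third. The third count was 71 without a filter, 105 with DESeq2 and 12 with Ttr as covariate. With 1 library left out they ranged from 466 to 991, 401 to 715 and 7 to 153. The cause was not tested.

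Replicate numbers did not pair the samples. With a replicate block, calls over all genes were 580, 504 and 10, and called members 7, 7 and 0. C2 missed the threshold in both comparisons (edgeR adjusted p 0.084 and 0.051) and C3ar1 in PLX3AP against 3AP (0.065).

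Directions turned only between PLX3AP and control, where no member was called. With a library left out, Cfb ran from -3.13 to 0.24 on the log2 scale, the C3ar1 ratio to microglial markers from 0.620 to 1.13, and the C5ar1 ratio from 0.568 to 1.10. The log2 change was 0.57 for Cfb and 0.0056 for C2 with Gm20547 counts added. Depth limits the comparison of PLX3AP with control, where C5ar1, Cfb, C3ar1 and C3 had 15, 10.78, 44 and 65 counts over the PLX3AP libraries and 25, 16.11, 69 and 45 over control.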
